A study of Gallus gallus with 6 samples.

Results

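The distal and the proximal pieces of the chicken cochlear duct at embryonic day 6.5 were compared gene by gene. The comparison used 4 of the 6 RNA-seq libraries of the study, 2 from distal pieces and 2 from proximal pieces, chosen by the region that the labels and the column names give. The other 2 libraries came from middle pieces and served for the spread and for levels between the ends. Each library was made from pieces of 1 region that had been pooled across ducts before RNA extraction, so no value belongs to a single embryo. Every piece held future basilar papilla and future tegmentum vasculosum, and the distal piece also held the prospective lagena. No treatment or genetic change separates the groups, which differ in position along the duct. Neither the strain of the embryos nor the number of ducts in a pool is stated. The labels' protocols mention separate biological replicates and 2 kinds of library kit, without saying which library used which, so the spread between sets may be biological or technical.

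The basilar papilla is the hearing epithelium of birds. Its hair cells are arranged by frequency, with high tones sensed near the proximal end and low tones near the distal end, and the position of a cell is set early, under signals that include bone morphogenetic proteins (BMPs) and retinoic acid. Hair cells detect vibration, supporting cells surround them and secrete the tectorial membrane, and neurons of the acoustic ganglion run along the duct. The tegmentum vasculosum faces the papilla and secretes endolymph, and the lagena is a macula, a sensory patch that carries otoconia.

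Values are RPKM (reads per kilobase of gene, scaled to the aligned reads of the library), as deposited by the authors. The columns form a first and a second set, each with 1 library of every region. The libraries held 9262860 alignments (distal) and 14489623 (proximal) in the first set, and 56103107 (distal) and 73918748 (proximal) in the second, so that 1 read per kilobase was worth 0.108, 0.069, 0.0178 and 0.0135 RPKM. Differences below are distal minus proximal on the scale of log2(RPKM + 1), on which a difference of 1 is called 2-fold and changes of low genes are understated. Over the 12559 genes tested the differences were wider in the shallower first set, with an interquartile range of 1.07 against 0.36 in the second set. Their median was 0.19 in the first set and -0.01 in the second, and the mean difference had a median of 0.10, which is the level that the lists below are read against. Markers of the otic epithelium were present in each of the 4 libraries. The otic transcription factor gene GATA3 stood at 128 and 169 RPKM in distal pieces and 113 and 111 RPKM in proximal pieces, first set before second set, the order used throughout. None of the 22 HOX genes in the table reached 1 RPKM in any library, the highest value being 0.253 RPKM.

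The 2 ends differed most in a small group of genes. In limma, with the set as a replicate block and p-values adjusted over all genes, 66 genes passed an adjusted p of 0.05, which is 0.526% of those tested. Of these, 31 (0.247%) rose and 35 (0.279%) fell in the distal piece. Fitted without the block, limma passed 0 genes (0%), with a smallest adjusted p of 0.194. An unadjusted limma p under 0.05 was reached by 508 genes without the block, against 1847 with it. The 508 fall below the 0.05 share of genes tested that is expected where none differs. The count of calls thus rests on comparing libraries of the same set. It also moved with single libraries, to 118 without the first-set distal library and to 6994 without the second-set proximal one. A plainer measure needs no fit. It counts genes that differed at least 2-fold in the same direction in both sets, and found 146 higher (1.16%) and 241 lower (1.92%) in the distal piece. All 66 genes that passed were among these 387, with differences between 1.58 and 4.64 when higher and between -1.60 and -4.40 when lower. Both measures use the same libraries, so this containment adds no support.

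For genes that passed, the difference in one set lay a median of 0.32 from that in the other, and at most 1.20. The fit favours genes whose sets agree, so this closeness is in part set by the choice. The same median was 0.37 for the 387 genes at least 2-fold in both sets, also chosen by agreement, and 0.52 over all genes tested. The first set gave the larger size for 22 of the 31 genes that rose and for 29 of the 35 that fell. The distal and proximal libraries did not overlap for 65 of the 66. The exception was MDGA1, a neuronal adhesion molecule gene, at 0.818 and 9.56 RPKM in distal pieces against 6.03 and 37.1 RPKM in proximal pieces, where the second distal library lay above the first proximal one. Over all genes tested, libraries of the ends did not overlap for 13.1% with distal above and 10.3% with distal below. Passing limma favours genes whose ends do not overlap and whose sets agree in direction. Where either is stated below for genes that passed, it describes their values and adds no support. Without the first-set distal library 11 of the 57 genes with a symbol missed the threshold (ATP1B1, BAMBI, CBLN4, CHRNA4, DLK1, EYA2, GAL5, KCNS2, SMOC1, SYBU and TAGLN3), and without the second-set one ATP1B1, CHRNA4 and SYBU did. Nearest inside the threshold were the R-spondin receptor gene LGR5 (adjusted p = 0.0493 in limma) and SMOC1 (0.0492). Next outside, 7 genes shared an adjusted p of 0.0526 in limma, 5 of them with a symbol. These were the growth factor gene PTN, ENC1, the otoconial oxidase subunit gene NOXO1, the smooth muscle actin gene ACTA2 and the carbonic anhydrase gene CA12.

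**Figure D1:**
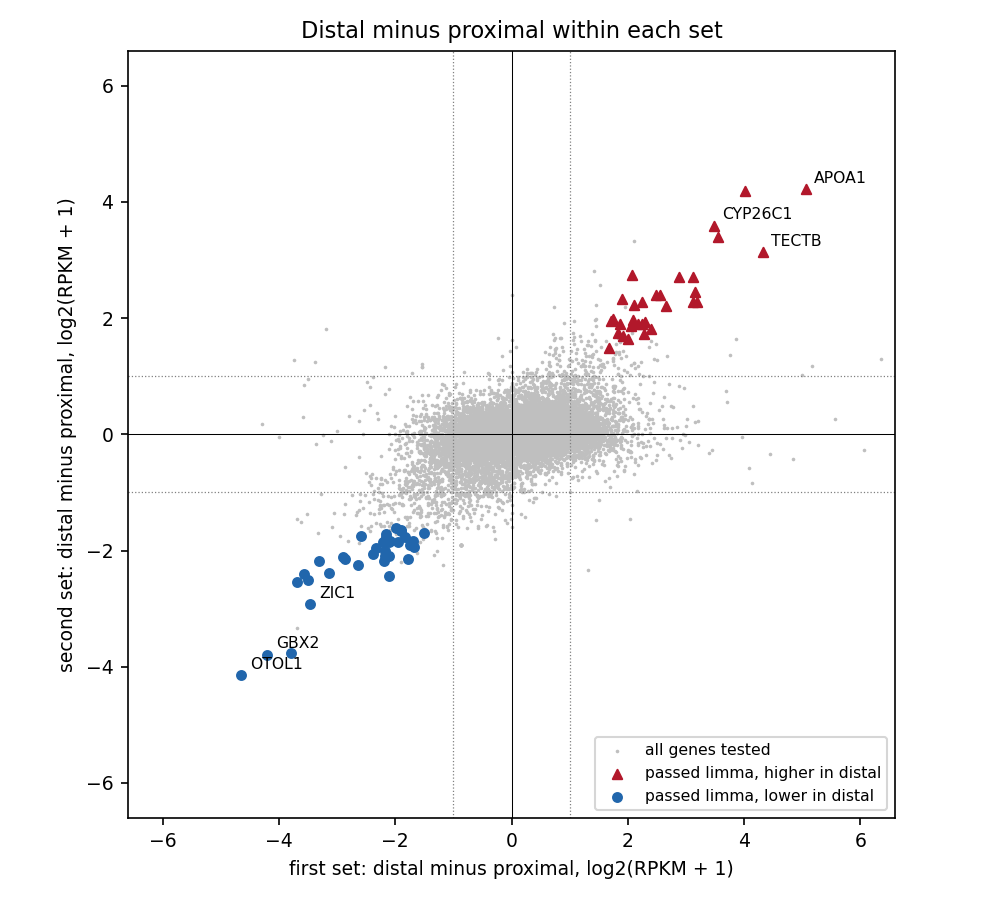
Difference between distal and proximal pieces in the first set (x axis) and in the second set (y axis), both as log2(RPKM + 1), for 12559 genes (grey), 31 genes that rose (red triangles) and 35 that fell (blue circles) in limma with the replicate block. The dotted lines mark 2-fold. The grey cloud is wider along the x axis, and the coloured points lie in the corners where both sets differ at least 2-fold the same way.

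Genes of several signalling pathways rose in the distal piece. CYP26C1, which breaks down retinoic acid, had 41.5 and 43.2 RPKM in distal pieces against 2.81 and 2.67 RPKM in proximal pieces. The BMP antagonist gene NOG had 16.2 and 12 RPKM in distal pieces against 0.869 and 1.68 RPKM in proximal pieces, and BAMBI, a pseudoreceptor gene of the BMP family, 151 and 99.6 RPKM against 39.3 and 30.2 RPKM. Both were above their proximal levels in every distal library. Of 12 tested BMP ligand and antagonist genes, 6 (50.0%) were higher by any amount in both sets and 5 (41.7%) lower. All genes tested had 33.3% and 24.7%. Beside NOG, the higher ones were the ligand genes BMP2, BMP4, BMP5 and BMP7 and the antagonist gene BMPER. The lower ones were the ligand gene GDF3 and CHRDL1, FSTL3, NBL1 and SOSTDC1. BMP7 differed by 0.99 and 1.19, BMP4 by 0.62 and 0.96, and GDF3 by -1.23 and -0.47. IGFBP5, which encodes a secreted binding protein of insulin-like growth factors, had 75.7 and 111 RPKM in distal pieces against 17.4 and 29.7 RPKM in proximal pieces, a difference of 1.96 ± 0.19 (SE, limma adjusted p = 0.0344). The receptor gene FGFR3, at 35.1 and 86.5 RPKM in distal pieces against 3.90 and 12.5 RPKM in proximal pieces, and DLK1, a non-canonical Notch ligand gene, rose as well. The 2 sets differed in the level of FGFR3 at both ends and gave nearly the same step. The Wnt ligand genes WNT4 and WNT5A rose too, with 56.8 and 54.1 RPKM for WNT4 in distal pieces against 16.6 and 13.3 RPKM in proximal pieces, and 55.5 and 69.7 RPKM for WNT5A against 11.4 and 18 RPKM.

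Matrix and adhesion genes rose beside them. ADAMTS1, a secreted metalloprotease gene, had 81.9 and 150.3 RPKM in distal pieces against 18.2 and 31.3 RPKM in proximal pieces (2.17 ± 0.19, limma adjusted p = 0.0318). ADAMTSL3, an ADAMTS-like matrix protein gene without a protease domain, had 4.94 and 10.7 RPKM in distal pieces against 0.395 and 2.02 RPKM in proximal pieces (2.02 ± 0.22). ITGB6, an integrin subunit gene of epithelia that can activate latent TGF-beta, had 41.5 and 60.4 RPKM in distal pieces against 8.02 and 15.4 RPKM in proximal pieces (2.07 ± 0.22). All 3 of these genes were higher in each distal library than in either proximal one. TECTB, a tectorial membrane gene, had a steeper step, with 37.2 and 22.2 RPKM in distal pieces against 0.903 and 1.65 RPKM in proximal pieces. ABI3BP, CDH13 and the secreted glycoprotein gene OLFM4 rose too, as did IGFN1, at 4.12 and 11.6 RPKM in distal pieces against 0.214 and 0.899 RPKM in proximal pieces. CBLN4, which encodes a secreted cerebellin, showed the smallest difference among the genes that rose (1.58 ± 0.19), with 58.9 and 66.9 RPKM in distal pieces against 17.9 and 23.1 RPKM in proximal pieces.

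Receptor, channel and metabolic genes completed the distal group. KCNMB4, an accessory subunit gene of the large-conductance calcium-activated potassium channels that tune avian hair cells electrically, had 51.4 and 30.3 RPKM in distal pieces against 13.1 and 5.24 RPKM in proximal pieces (2.11 ± 0.25, limma adjusted p = 0.0443). The pore subunit gene of these channels, KCNMA1, did not rise, at 0.514 and 1.85 RPKM in distal pieces against 0.917 and 3.82 RPKM in proximal pieces. HTR1A, a serotonin receptor gene, had 8.86 and 10 RPKM in distal pieces against 0.863 and 2.11 RPKM in proximal pieces (2.11 ± 0.25). SORCS3, a sorting receptor gene, had 3.89 and 13.2 RPKM in distal pieces against 0.343 and 2.84 RPKM in proximal pieces (1.88 ± 0.22). No distal value of KCNMB4, HTR1A or SORCS3 overlapped a proximal one. The opsin-like gene RGR had 36.7 and 14.0 RPKM in distal pieces against 3.31 and 1.32 RPKM in proximal pieces (2.91 ± 0.23, limma adjusted p = 0.0268). APOA1, an apolipoprotein gene, had 147 and 71.6 RPKM in distal pieces against 3.45 and 2.88 RPKM in proximal pieces, the largest difference of all genes that passed (4.64 ± 0.27, limma adjusted p = 0.0145). The lactate dehydrogenase gene LDHA, the epithelial ETS factor gene ELF5 and GBE also rose. Of the 31 genes 5 carry no symbol in the table.

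Several of the genes that fell in the distal piece are used by neurons and their precursors. In bulk pieces, fewer cells of a type and less RNA in each cell cannot be told apart. NEUROD4, a proneural factor gene, had 1.92 and 1.31 RPKM in distal pieces against 12.4 and 9.49 RPKM in proximal pieces, a difference of -2.19 ± 0.22 (limma adjusted p = 0.0355). Its relatives NEUROD1 and NHLH1 fell as well, NEUROD1 standing at 6.23 and 5.34 RPKM in distal pieces against 81.1 and 34.8 RPKM in proximal pieces. CHGA, which encodes the secretory granule protein chromogranin A, had 74.2 and 78.4 RPKM in distal pieces against 663 and 416 RPKM in proximal pieces. VIP, a neuropeptide gene, had 3.68 and 1.68 RPKM in distal pieces against 32.9 and 10.8 RPKM in proximal pieces (-2.50 ± 0.28). Every distal value of these genes was below every proximal one. Cytoskeleton and transport genes of axons followed. TAGLN3, a neuronal transgelin gene, had 63.2 and 34.5 RPKM in distal pieces against 215 and 132 RPKM in proximal pieces (-1.83 ± 0.23), and SYBU, an adaptor gene of axonal transport, 1.33 and 2.47 RPKM against 6.51 and 11.5 RPKM (-1.77 ± 0.22). GAP43, NRN1 and, by its gene ID in RefSeq, the vesicle protein gene HMP19 fell too.

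Channel, receptor and ion pump genes were also among the genes that fell. KCNK10, a background potassium channel gene, had 0.559 and 1.42 RPKM in distal pieces against 6.04 and 8.67 RPKM in proximal pieces (-2.09 ± 0.25, limma adjusted p = 0.0443). KCNS2, a modulatory subunit gene of voltage-gated potassium channels, had 0.177 and 2.10 RPKM in distal pieces against 4.26 and 9.11 RPKM in proximal pieces (-1.93 ± 0.24). CHRNA4, a nicotinic acetylcholine receptor subunit gene, had 2.80 and 3.67 RPKM in distal pieces against 11.2 and 16.9 RPKM in proximal pieces (-1.81 ± 0.23). The sodium pump subunit gene ATP1B1 had 61.5 and 55.2 RPKM in distal pieces against 176 and 181 RPKM in proximal pieces. EDNRB, an endothelin receptor gene of neural crest cells, had 8.80 and 17.2 RPKM in distal pieces against 48.4 and 69.1 RPKM in proximal pieces (-2.14 ± 0.21, limma adjusted p = 0.0341). The distal and proximal libraries of these 5 genes did not overlap.

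The rest of the genes that fell are enzymes, secreted proteins and regulators with no single cell type in common. OTOL1, the otolin gene of otoconia, and OCM2, an oncomodulin gene whose value is uncertain if its reads are shared with similar copies, were the steepest beside the homeobox gene GBX2. OTOL1 had 0.759 and 0.377 RPKM in distal pieces against 43.2 and 23.3 RPKM in proximal pieces (-4.40 ± 0.25, limma adjusted p = 0.0145). GBX2 had 3.10 and 0.942 RPKM in distal pieces against 74.5 and 25.9 RPKM in proximal pieces. AKR1D1, a steroid reductase gene, had 49.9 and 29.0 RPKM in distal pieces against 174 and 132 RPKM in proximal pieces (-1.96 ± 0.20, limma adjusted p = 0.0366). HPGD, whose enzyme inactivates prostaglandins, had 2.05 and 1.08 RPKM in distal pieces against 12.1 and 6.49 RPKM in proximal pieces (-1.98 ± 0.23). GAL5, listed in RefSeq as a synonym of a beta-defensin gene, had 5.58 and 3.14 RPKM in distal pieces against 28.4 and 13.0 RPKM in proximal pieces (-1.96 ± 0.23). Each of these 3 was thus lower distally in both sets.

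Regulators of growth signals and surface proteins fell in the same way. LRIG1, a membrane inhibitor gene of ERBB receptors, had 4.46 and 13.5 RPKM in distal pieces against 22.3 and 50.7 RPKM in proximal pieces (-1.96 ± 0.21). ADAM19, a membrane metalloprotease gene, had 1.04 and 1.96 RPKM in distal pieces against 8.17 and 11.6 RPKM in proximal pieces (-2.13 ± 0.25). ZPLD1, which encodes a zona pellucida domain protein, had 1.63 and 0.793 RPKM in distal pieces against 10.3 and 6.68 RPKM in proximal pieces (-2.10 ± 0.22). In all 3 genes no distal value reached a proximal one. SMOC1, a secreted matrix protein gene, STK32A, a kinase gene, the carboxypeptidase gene CPB1, EYA2 and ZIC1 fell too. So did C14H16orf79, with 10.8 and 6.14 RPKM in distal pieces against 117 and 31.4 RPKM in proximal pieces. Testing required at least 1 RPKM in at least 2 libraries, which CPB1 and STK32A reached only in proximal pieces. Of the 35 genes 4 carry no symbol in the table, among them the loci that RefSeq names HMP19 and CGTL.

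**Figure D2:**
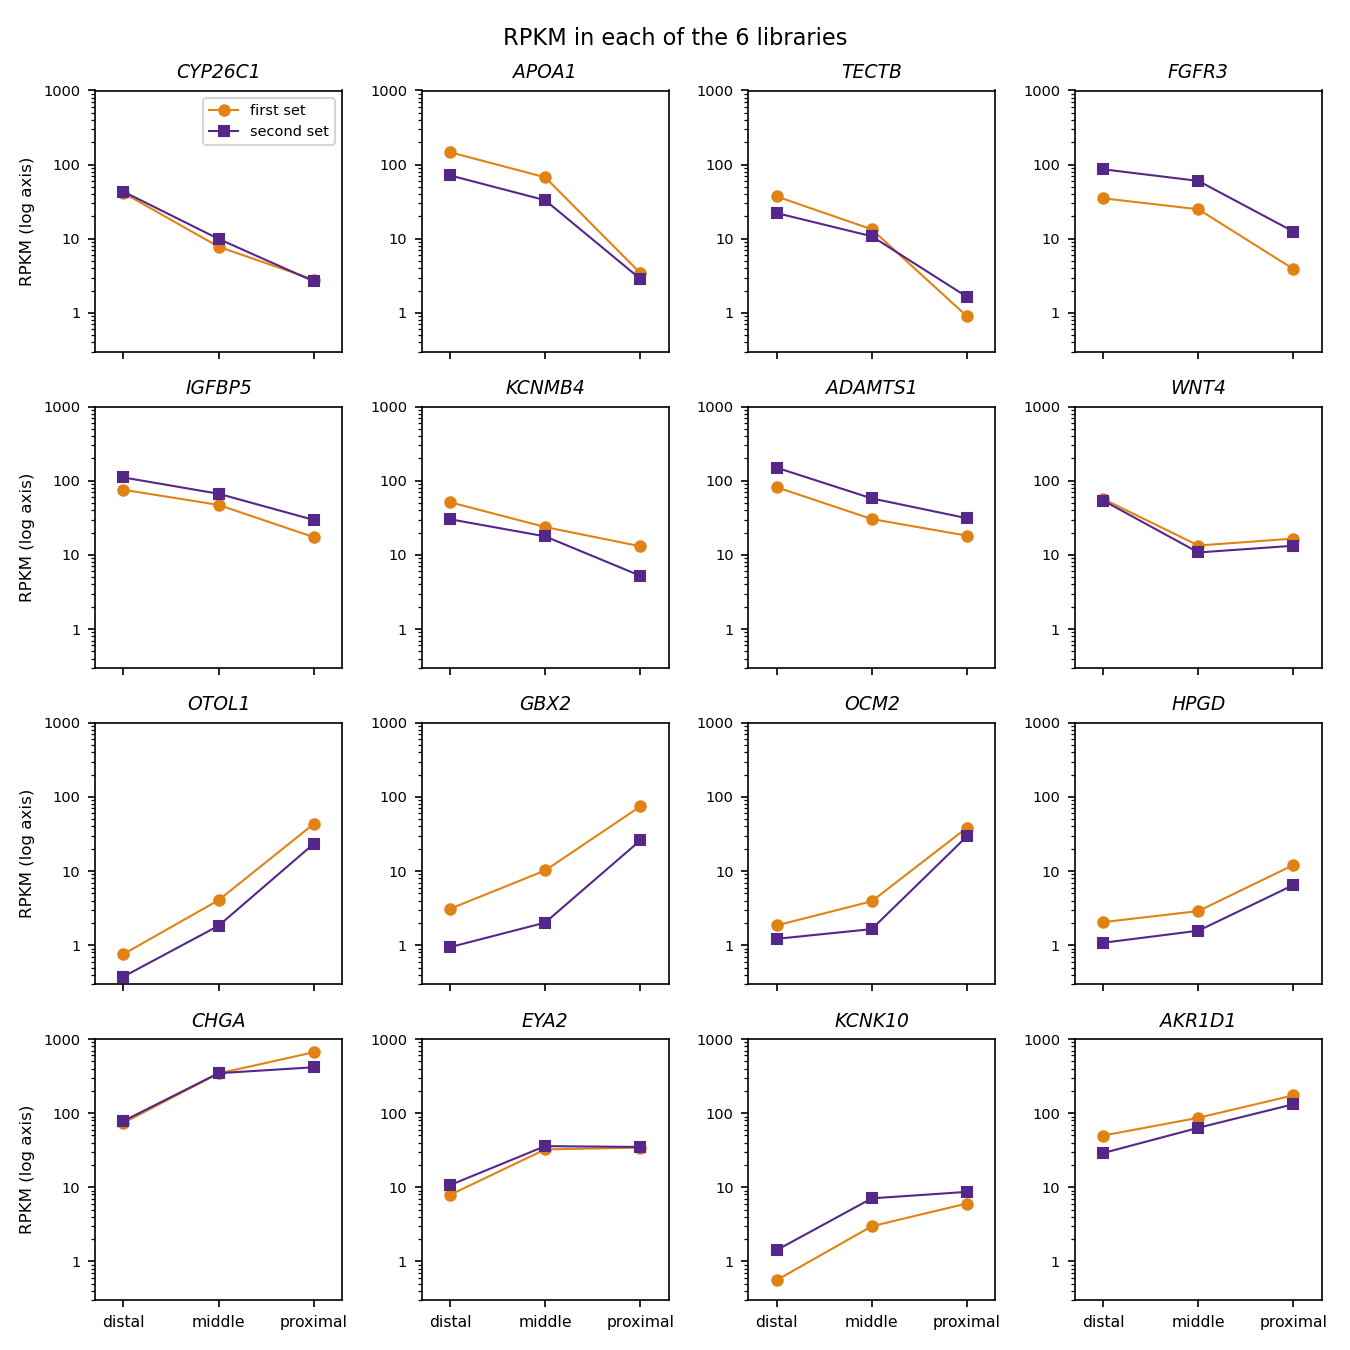
RPKM (log axis, the same range in every panel) of 16 genes that passed limma, in distal, middle and proximal pieces, with the first set as circles and the second as squares. Genes of the upper 2 rows are highest in the distal piece and genes of the lower 2 rows lowest there, in both sets, while the middle piece lies at different points of the step.

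The middle piece shows where along the duct each step lies. Its level was expressed as a share of the step from proximal (0%) to distal (100%) on the log2(RPKM + 1) scale, within each set. Among the 31 genes that rose in the distal piece, the middle level lay between the ends in both sets for 30, with a median share of 49.5% in the first set and 43.4% in the second. Among the 35 that fell it lay between the ends in both sets for 27, with medians of 50.6% and 48.7%. Over the 387 genes that differed at least 2-fold in both sets, 114 of 146 higher and 143 of 241 lower genes had a middle level between the ends in both. The median shares were 50.3% and 45.1% for the higher genes and 41.3% and 25.9% for the lower ones. Both groups were chosen for a wide gap between the ends, which makes a middle level inside it more likely. The same count over all genes tested was not made. The counts thus describe these genes and add no support for a gradient.

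The position of the step differed between genes. For 16 of the 146 higher genes the share was under 25% in both sets, so that the distal piece alone was high. They include WNT4 (-16.9% and -14.1%, the middle lying below both ends) and ADAMTSL3 (12.5% and 1.81%), and, among genes that missed the threshold, the homeobox gene MSX1 and PKP2, which encodes a desmosome plaque protein. MSX1 had 99.8 and 90.8 RPKM in distal pieces, 6.30 and 7.15 RPKM in middle pieces and 22.3 and 8.17 RPKM in proximal pieces. For 14 higher genes the share was above 75% in both sets, so that the proximal piece alone was low. FGFR3 (83.6% and 81.0%) and SORCS3 (84.8% and 76.3%) belong here. GATA2 also does, a transcription factor gene of the inner ear with 111 and 191 RPKM in distal pieces, 119 and 183 RPKM in middle pieces and 50.6 and 68.5 RPKM in proximal pieces (difference 1.29 ± 0.20, limma adjusted p = 0.0706).

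Of the 241 lower genes 49 had a share under 25% in both sets, with middle levels close to the proximal ones. GAP43, a growth cone gene, had 44.0 and 51.6 RPKM in distal pieces, 195 and 279 RPKM in middle pieces and 279.6 and 249 RPKM in proximal pieces, and EYA2 7.90 and 10.7 RPKM, 32.4 and 35.9 RPKM, and 34.3 and 35.0 RPKM. KCNS2, MDGA1, SYBU and TAGLN3 are the other genes with a symbol in this class that passed. For 23 lower genes the share was above 75% in both sets, so that the proximal piece alone was high. OCM2 (79.2% and 93.2%), CALB2, HPGD, GAL5 and STK32A passed in this class. OCM2 had 1.85 and 1.22 RPKM in distal pieces, 3.92 and 1.65 RPKM in middle pieces and 38.4 and 29.4 RPKM in proximal pieces. The hair cell transcription factor gene POU4F3 lay in the same class without passing, at 9.55 and 11.8 RPKM in distal pieces, 12 and 12 RPKM in middle pieces and 35.0 and 26.7 RPKM in proximal pieces (limma adjusted p = 0.0774).

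**Figure D3:**
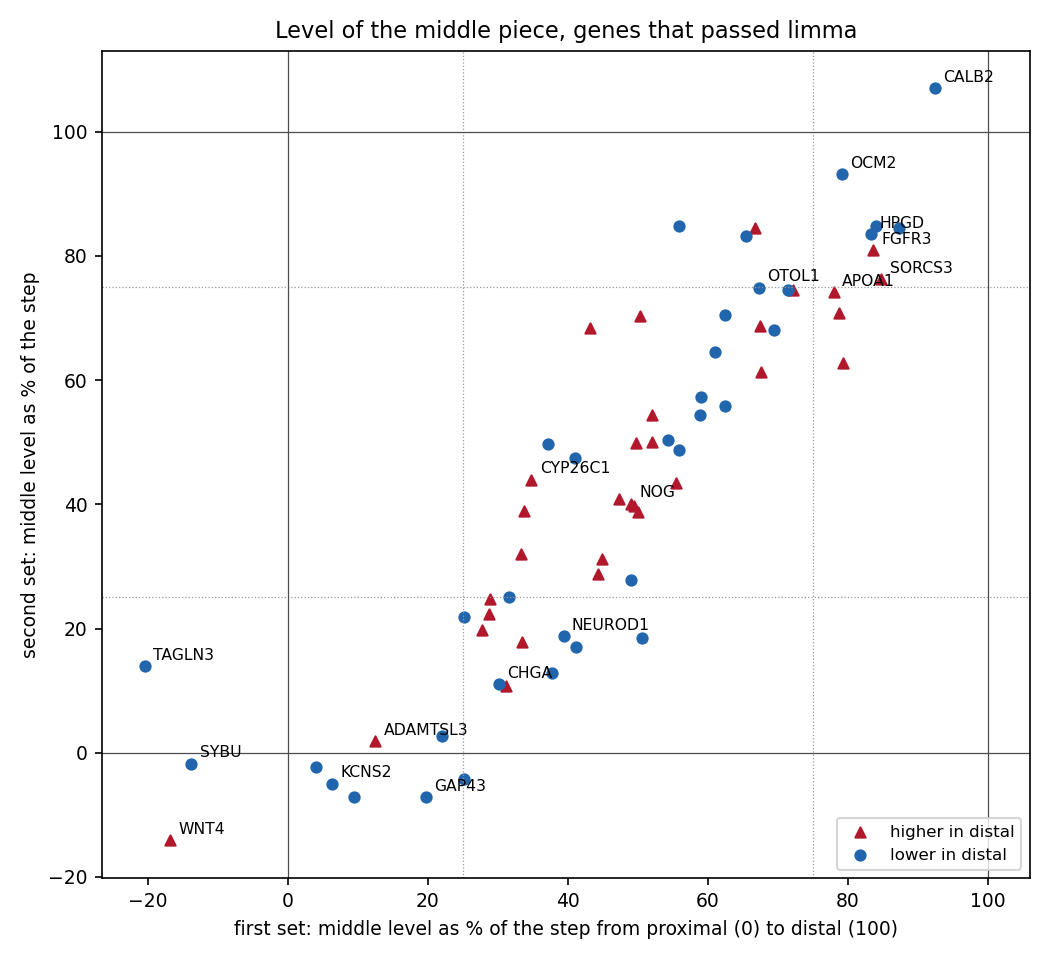
Level of the middle piece as a percentage of the step from proximal (0) to distal (100), in the first set (x axis) and in the second (y axis), for the 66 genes that passed limma. Red triangles are genes that rose in the distal piece and blue circles genes that fell. WNT4, SYBU and TAGLN3 lie at the lower left and OCM2 and CALB2 at the upper right, with most genes in between.

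Lists of cell type and pathway genes are read against all genes tested, of which 1.16% were at least 2-fold higher in both sets and 1.92% at least 2-fold lower, while 33.3% were higher by any amount in both sets and 24.7% lower. Markers of neurons were mostly lower in the distal piece. Of 17 tested genes in the list of neuronal transcription factors, 7 were at least 2-fold lower in both sets (41.2%) and 0 higher by that size. In limma 4 fell, and the median difference was -1.19, or -1.85 with a pseudocount of 0.1. The list also held the RNA-binding protein genes ELAVL2 and ELAVL4, and ELAVL4 was counted among the axon genes too. By any amount 15 of the 17 (88.2%) were lower in both sets and 2 (11.8%) higher, PROX1 and GATA3. GATA3 was also on the list of otic markers, and PROX1 on that of supporting and prosensory cells. Of 30 axon and secretory granule genes 8 were at least 2-fold lower in both sets, 3 fell and the median was -0.93. STMN4, a stathmin gene of growing axons, had 12.1 and 11.6 RPKM in distal pieces against 43.8 and 36.7 RPKM in proximal pieces. CNTN2, an axonal contactin gene, had 21.5 and 80.7 RPKM against 124 and 249 RPKM. The zinc finger gene MYT1, used in neuronal differentiation, had 2.90 and 7.75 RPKM in distal pieces against 11.4 and 26.4 RPKM in proximal pieces. STMN4, CNTN2 and MYT1 missed the threshold, at limma adjusted p = 0.0534, 0.0603 and 0.0627. Glia and neural crest genes had 5 of 14 at least 2-fold lower in both sets, 1 of which, EDNRB, fell in limma. FOXD3, a crest transcription factor gene, was among them, at 17.7 and 24.4 RPKM in distal pieces against 90.3 and 54.5 RPKM in proximal pieces.

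Red blood cell markers were mostly lower by value, without passing. Of 11 red blood cell genes 7 were at least 2-fold lower in both sets (63.6%) and 0 passed limma, with a median of -1.47. The 7 were globin genes and CA2, which was also counted in a list of tegmentum and nonsensory transport genes. KLF1 (-0.42 and -0.38), TAL1 (-0.25 and -0.43) and LMO2 (-0.36 and -0.78) were lower by less, and TFRC was higher (0.55 and 0.04). The summed level of this list was 1637 and 1295 RPKM in distal pieces against 5776 and 2858 RPKM in proximal pieces. HBE and HBAA are both globin genes. HBE had 134 and 115 RPKM in distal pieces against 434 and 291 RPKM in proximal pieces. HBAA had 399 and 264 RPKM in distal pieces against 1732 and 611 RPKM in proximal pieces, with a limma adjusted p of 0.0841, and reads of similar globin genes may not be separable. Leukocyte genes had 0 of 12 at least 2-fold in both sets and a median of -1.12 in the first set and -0.33 in the second, with summed levels of 69.9 and 57.2 RPKM in distal pieces against 90.3 and 55.0 RPKM in proximal pieces. By any amount 8 of the 12 (66.7%) were lower in both sets and 1 (8.33%), CD74, higher. PTPRC, which marks nearly all leukocytes, stayed under 1 RPKM in all 6 libraries. C1QB, of the same list, had 1.03 and 0.834 RPKM in distal pieces against 4.13 and 1.54 RPKM in proximal pieces. Endothelial genes had a median of -0.19 and 0 of 14 at least 2-fold in both sets. By any amount 8 (57.1%) were lower in both sets and 1 (7.14%) higher. The part of blood, glia and neuron content in the other differences was not tested.

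Hair cell genes were mostly lower in the distal piece, and more supporting cell genes were higher than lower. Of 17 hair cell genes 5 were at least 2-fold lower in both sets and 0 higher, with a median of -0.62, and CALB2 and OCM2 fell. CALB2, the calretinin gene, had 12.4 and 9.36 RPKM in distal pieces against 172 and 59.5 RPKM in proximal pieces. CHRNA10, a subunit gene of the efferent acetylcholine receptor, had 6.14 and 8.33 RPKM in distal pieces against 70.7 and 29.1 RPKM in proximal pieces (limma adjusted p = 0.0876), and ESPNL, an espin-like gene of hair bundles, 1.43 and 1.22 RPKM against 17.9 and 6.48 RPKM (0.0697). By any amount, 11 of the 17 were lower in both sets (64.7%) and 3 higher (17.6%). The higher ones were USH1C, CALB1 and the parvalbumin gene PVALB. PVALB had 5.53 and 4.80 RPKM in distal pieces against 2.28 and 1.35 RPKM in proximal pieces. The other 3 had opposite signs in the 2 sets, among them the hair cell transcription factor gene ATOH1. ATOH1 had 40.7 and 31.1 RPKM in distal pieces against 44.7 and 18.5 RPKM in proximal pieces. Of 19 supporting and prosensory genes 4 were at least 2-fold higher in both sets (21.1%, against 1.16% of all genes) and 1 lower, HES5, and TECTB, FGFR3 and LGR5 rose. The median was 0.42. OTOA, which encodes otoancorin, an attachment protein of acellular gels, had 10.1 and 41.7 RPKM in distal pieces against 2.94 and 18.2 RPKM in proximal pieces (limma adjusted p = 0.0847). The acellular membrane proteins as a list had a median of 0.72, with 6 of 8 members higher in both sets. This list shares TECTA, TECTB and OTOA with the supporting and prosensory list, so the 2 are not separate. Its 2 genes at least 2-fold higher, TECTB and OTOA, are among those already counted there. Otoconia and macula genes went both ways. Of 12 tested 3 were at least 2-fold lower in both sets and 0 higher by that size, while 5 were lower by any amount in both and 4 higher. The summed level, set mainly by OC90 and SPARC, was 1926 and 1807 RPKM in distal pieces against 1376 and 1337 RPKM in proximal pieces. OC90, the gene of the main otoconial protein otoconin, had 1153 and 967 RPKM in distal pieces against 414 and 591 RPKM in proximal pieces. NOX3, the catalytic subunit gene of the otoconial oxidase, was listed at 0 and measured 0.0327 RPKM in distal pieces, against 1.28 and 2.57 RPKM in proximal pieces. It was tested only because the proximal libraries reached 1 RPKM.

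**Figure D4:**
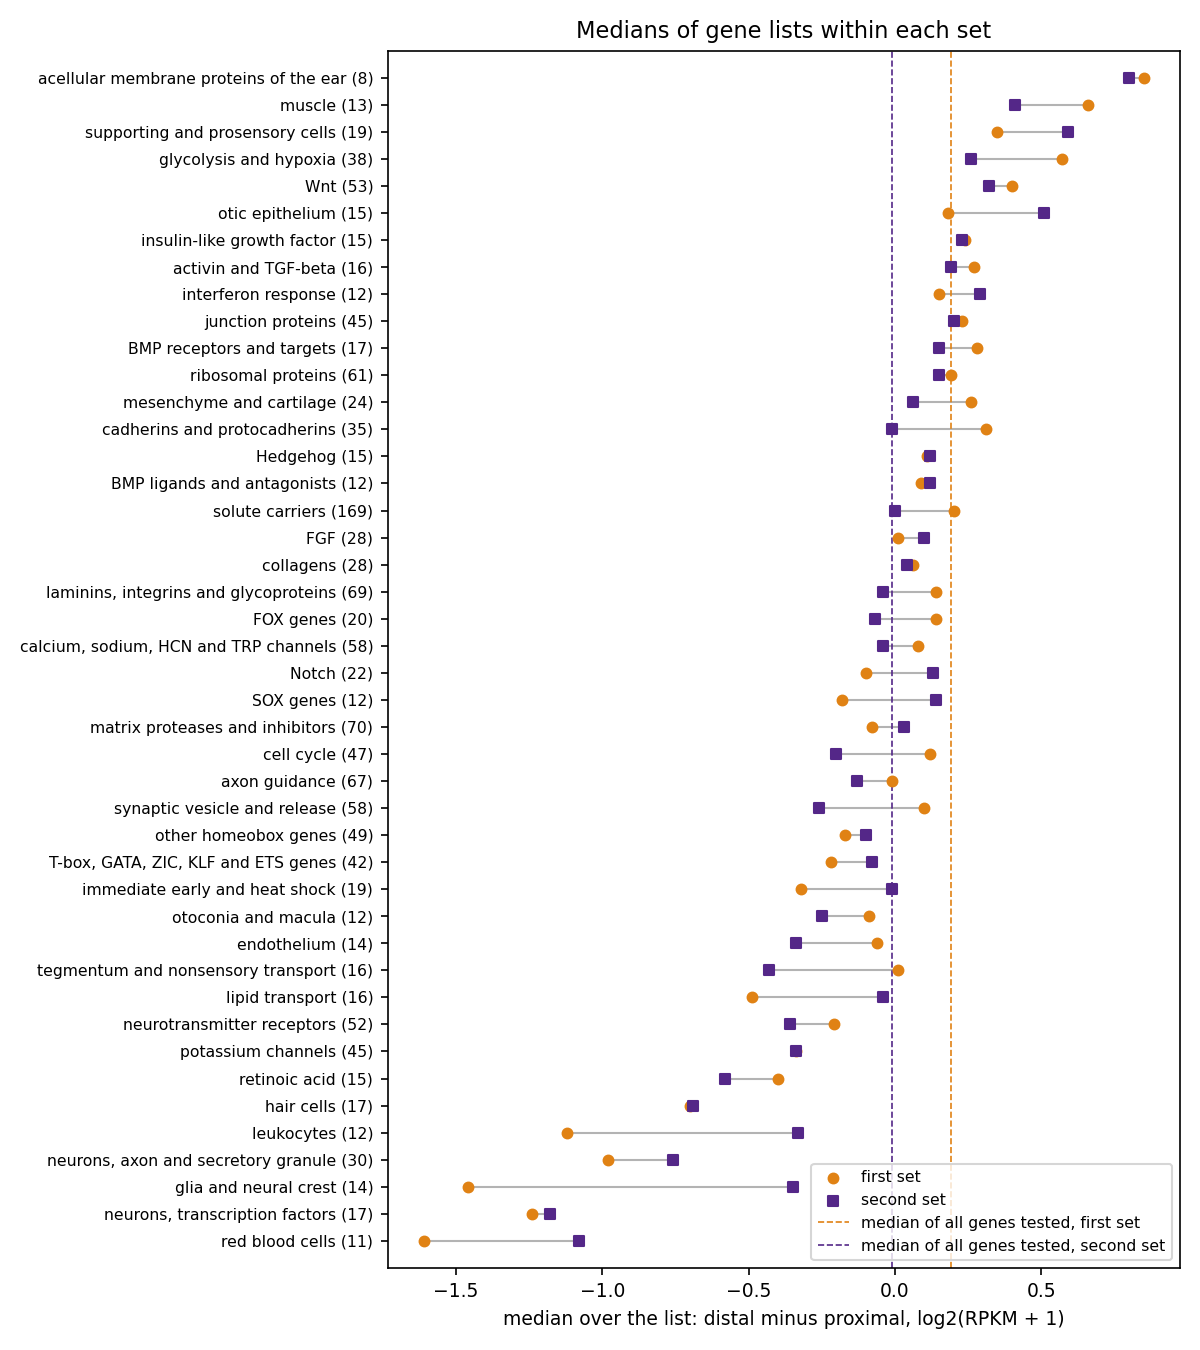
Median difference between distal and proximal pieces, as log2(RPKM + 1), over the tested members of 44 gene lists in the first set (orange circles) and in the second (purple squares), with the number of tested genes in brackets. Dashed lines mark the medians of all genes tested, 0.19 and -0.01. Red blood cell and neuron lists lie lowest in the second set. In the first set the red blood cell and glia lists lie lowest, followed by the neuron transcription factor, leukocyte and axon lists. Glia and leukocyte lists lie far lower in the first set than in the second, and acellular membrane proteins of the ear lie highest in both.

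Transcription factor families held genes of both ends. Of 49 tested genes in a list of homeobox genes outside the HOX clusters, 5 (10.2%) exceeded 2-fold upward and 7 (14.3%) downward in both sets. GBX2 alone fell in limma, while the list median of -0.11 was small. The list is not complete, as it lacks SOHO-1, which was at least 2-fold lower in both sets. Its higher members at this size were MSX1, EMX2, PRRX1, RAX and GSC2. EMX2, a patterning gene of the inner ear, was even between sets, at 111 and 118 RPKM in distal pieces against 48.2 and 51.7 RPKM in proximal pieces (1.18 ± 0.18, limma adjusted p = 0.0715). The mesenchymal gene PRRX1 had 28.5 and 24.6 RPKM in distal pieces against 13.0 and 7.68 RPKM in proximal pieces. The lower ones included TLX3, a factor gene of sensory neurons that was listed at 0 in the first distal library and measured 1.31 RPKM in the second, against 10.5 and 4.98 RPKM in proximal pieces, and MEOX2, at 3.81 and 1.67 RPKM against 11.1 and 10.2 RPKM. SOX14 was the 1 of 12 SOX genes at this size, at 3.06 and 3.00 RPKM in distal pieces against 0.166 and 0.352 RPKM in proximal pieces (limma adjusted p = 0.0553). Among 20 FOX genes FOXD3 alone was at least 2-fold lower in both sets and none was higher by that size. In the list of T-box, GATA, ZIC, KLF and ETS genes ELF5 and GATA2 were at least 2-fold higher, and ZIC1 and ZIC5 lower, of 42 tested.

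Within signalling families, single genes stood out at each end. Of 53 Wnt genes 6 were at least 2-fold higher in both sets (11.3%) and 2 lower, 3 rose (WNT4, WNT5A and LGR5), and 35 (66.0%) were higher by any amount in both sets against 15 (28.3%) lower. FZD10, a Frizzled receptor gene, had 23.4 and 27.8 RPKM in distal pieces against 3.36 and 8.85 RPKM in proximal pieces (limma adjusted p = 0.0590). WNT7A, a ligand gene, had 10.5 and 13.6 RPKM in distal pieces against 3.58 and 4.75 RPKM in proximal pieces. WNT2B and WNT16 were the lower ones, WNT2B at 0.137 and 0.368 RPKM against 8.69 and 3.13 RPKM. Both reached 1 RPKM, the level needed to be tested, only in proximal pieces, so their direction adds no support. Of 28 FGF genes 4 were at least 2-fold higher and 1 lower, and FGFR3 alone passed. FGFRL1, a decoy-like receptor gene, had nearly the same step in each set (1.03 and 1.04). FGF18, a ligand gene, had 13.0 and 6.78 RPKM in distal pieces against 1.70 and 1.74 RPKM in proximal pieces, and FGF13, a neuronal member that acts inside cells, 3.03 and 5.55 RPKM against 10.6 and 18.8 RPKM. Among 15 retinoic acid genes 1 was at least 2-fold higher and 3 lower in both sets, the lower ones being ALDH1A3, CRABP1 and CYP26B1. By any amount 4 (26.7%) were higher and 8 (53.3%) lower. Enzymes that break down retinoic acid went both ways, CYP26B1 having 3.15 and 9.10 RPKM in distal pieces against 15.8 and 21.9 RPKM in proximal pieces. CYP26A1 was also lower (-0.50 and -0.58), while RDH10, which acts in synthesis, was higher (0.77 and 0.88). ALDH1A3, which makes retinoic acid, had 1.93 and 6.10 RPKM in distal pieces against 37.0 and 70.8 RPKM in proximal pieces, a step as steep as those that passed, with a wider error (-3.52 ± 0.53, limma adjusted p = 0.0698). Its middle pieces had 6.82 and 3.15 RPKM. CRABP1, which binds retinoic acid inside cells, had 18.7 and 9.24 RPKM in distal pieces against 58.0 and 35.9 RPKM in proximal pieces (-1.72 ± 0.23, limma adjusted p = 0.0534). Among 17 BMP receptor and target genes, BAMBI and MSX1 were at least 2-fold higher in both sets (11.8%) and BMPR1B lower (5.88%). Among 22 Notch genes, DLK1 was at least 2-fold higher and HES5 lower (4.55% each). The Hedgehog list and the activin and TGF-beta list had none at this size, among 15 and 16 tested. Of 15 insulin-like growth factor genes 1, IGFBP5, was at least 2-fold higher, and 9 (60.0%) were higher by any amount in both sets.

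Channel genes were found at both ends. Of 45 potassium channel genes 26 (57.8%) were lower in both sets and 12 (26.7%) higher, with a median of -0.39, and 2 (4.44%) exceeded 2-fold upward and 4 (8.89%) downward. KCNMB4 rose, and KCNK10 and KCNS2 fell. KCNF1, another modulatory subunit gene, had 3.06 and 4.18 RPKM in distal pieces against 0.546 and 0.566 RPKM in proximal pieces (1.56 ± 0.25, limma adjusted p = 0.0755). In the list of calcium, sodium, HCN and TRP channels, 5 of 58 tested genes were at least 2-fold higher (8.62%) and 1 lower (1.72%). By any amount in both sets, 22 (37.9%) were higher and 22 lower. The 5 include PIEZO2 and CLCA2, a chloride channel regulator gene, which lie outside the named channel types. PIEZO2, a mechanically gated channel gene, had 12.5 and 31.8 RPKM in distal pieces against 1.56 and 9.70 RPKM in proximal pieces (2.01 ± 0.30, limma adjusted p = 0.0698). TRPM3, a cation channel gene, had 3.19 and 12.8 RPKM in distal pieces against 0.521 and 4.13 RPKM in proximal pieces, and CACNA1I, a T-type calcium channel gene, 1.4 and 3.71 RPKM against 0.137 and 0.222 RPKM. Neurotransmitter receptor genes had 30 of 52 lower (57.7%) and 16 higher (30.8%) in both sets, with HTR1A rising and CHRNA4 falling. SSTR5, a somatostatin receptor gene, had 13.1 and 15 RPKM in distal pieces against 3.19 and 5.70 RPKM in proximal pieces. The glutamate receptor subunit genes split, GRIN1 standing at 0.892 and 1.77 RPKM in distal pieces against 3.62 and 5.74 RPKM in proximal pieces and GRIN3A at 4.67 and 9.08 RPKM against 1.30 and 3.96 RPKM. Of 58 genes for synaptic vesicles and release 4 were at least 2-fold lower and 0 higher, among them the vesicular glutamate transporter gene SLC17A6, at 1.30 and 2.35 RPKM in distal pieces against 3.83 and 8.80 RPKM in proximal pieces.

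Matrix and adhesion families held genes of both ends. Of 69 laminin, integrin and matrix glycoprotein genes 6 (8.70%) were at least 2-fold higher and 3 (4.35%) lower in both sets. NPNT, the nephronectin gene of basement membranes, had 61.4 and 77.1 RPKM in distal pieces against 25.8 and 31.4 RPKM in proximal pieces (1.24 ± 0.19, limma adjusted p = 0.0698), and the thrombospondin gene THBS1 30.7 and 41.8 RPKM against 78.8 and 91.3 RPKM (-1.22 ± 0.19, 0.0743). GPC3, a glypican gene, had 57.9 and 83.9 RPKM in distal pieces against 22.1 and 34.9 RPKM in proximal pieces. Of 70 proteases and inhibitors 4 (5.71%) were higher and 5 (7.14%) lower at this size. Of 28 collagen genes COL24A1 alone was at least 2-fold higher and none lower. Junction proteins had 21 of 45 higher (46.7%) and 10 lower (22.2%) in both sets, the lower share being near that of all genes, and a median of 0.25. PKP2 was the 1 junction gene at least 2-fold higher, at 19.0 and 21.8 RPKM in distal pieces against 4.56 and 7.77 RPKM in proximal pieces. The desmosomal cadherin gene DSG2 matched it in direction, at 24.9 and 40.9 RPKM against 7.87 and 18.4 RPKM (limma adjusted p = 0.0774). Of 67 axon guidance genes EFNB2, an ephrin gene, was at least 2-fold higher, and NTN1, the netrin gene, and EFNA5 lower, shares of 1.49% and 2.99% that are near those of all genes. NTN1 measured 6.72 and 7.71 RPKM in distal pieces against 22 and 22.3 RPKM in proximal pieces (-1.50 ± 0.21, limma adjusted p = 0.0584).

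Of 38 glycolysis and hypoxia genes 21 (55.3%) were higher by any amount in both sets and 8 (21.1%) lower, with a median of 0.31. LDHA alone rose, at 227 and 154 RPKM in distal pieces against 47.0 and 31.0 RPKM in proximal pieces, while NDRG1 was at least 2-fold higher and EPAS1, a hypoxia-inducible factor gene, at least 2-fold lower without passing. The lipid transport list, with 16 tested genes, also held the opsin-like gene RGR, which is not a lipid transport gene. In it APOA1 and RGR rose, and the fatty acid binding protein genes FABP5 and FABP7 were at least 2-fold lower in both sets. FABP7 had 78.4 and 37.2 RPKM in distal pieces against 243 and 137 RPKM in proximal pieces. Of 169 solute carriers 3 were at least 2-fold higher and 3 lower (1.78% each, near the shares of all genes), and none passed. The sodium-proton exchanger genes SLC9A2 and SLC9A4 were both higher, SLC9A2 at 3.58 and 3.41 RPKM against 0.561 and 0.964 RPKM. Cell cycle genes had 0 of 47 at this size, with 1 (2.13%) higher and 16 (34.0%) lower in both sets and 30 of opposite sign. Ribosomal protein genes, 61 in number, had a median of 0.22 and 0 at this size. By any amount 33 (54.1%) were higher in both sets and 2 (3.28%) lower. Early response and heat shock genes had 0 of 19 at this size, with 2 (10.5%) higher by any amount in both sets and 8 (42.1%) lower. Interferon response genes had 0 of 12 at this size, with 5 (41.7%) higher and 0 lower by any amount in both sets.

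Muscle genes were mixed. Of 13 tested, the troponin genes TNNT2 and TNNC2 were 2-fold higher or more in both sets, and 2 were lower by that size, the smooth muscle actin gene ACTA2 and the myosin light chain gene MYL4. TNNC2 had 240.3 and 103 RPKM in distal pieces against 114 and 32.9 RPKM in proximal pieces, and ACTA2 5.07 and 2.89 RPKM against 19.9 and 10.6 RPKM. The determination factor genes MYOD1 and MYOG stayed under 1 RPKM in all 6 libraries. Others of this kind did not. MYF6 had 2.21 and 0.602 RPKM in distal pieces against 1.03 and 0.139 RPKM in proximal pieces. MYF5 reached 1.17 RPKM in the first distal library and stayed under 1 RPKM elsewhere.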

How the data were processed

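The authors deposited RPKM values per gene, with the number of alignments of each library. TopHat 1.4.0 and Partek 6.6 are named, per the submitters' processing notes. No source used here gives the genome build, the annotation or the use of strand, so no positions or sequences are printed. The alignment entry was dropped. Columns were matched to regions by name, and not to individual samples. Genes with at least 1 RPKM in at least 2 of 6 libraries were tested on log2(RPKM + 1), with a pseudocount of 1, in limma 3.58.1 (R 4.3.3), with region and set as factors over all 6 libraries. Among the genes named, CA12, CPB1, NOX3, STK32A, WNT2B and WNT16 reached 1 RPKM only in proximal libraries, and CACNA1I and TNNT2 only in distal ones. Each of these was tested only because that end was high, so its direction adds no support. Variances were moderated with a mean trend, and two-sided p-values were adjusted after Benjamini and Hochberg. The fit leaves 2 residual degrees of freedom. The code was tested on simulated data. The sets pair the libraries by column name. Differences between sets correlated across genes at 0.659 (proximal and middle), 0.655 (proximal and distal) and 0.885 (middle and distal).

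The members, the design with the set as a block, the 45 gene lists and the naming rule were chosen with earlier results of these data known. The rule named genes with a symbol that passed, the 12 per direction with the largest lesser difference of the 2 sets, up to 5 per direction and list at least 2-fold in both sets (otherwise 2 with the smallest p), genes of opposite direction, and those next to the threshold. ENC1, OC90, SPARC, GATA3, PVALB, PTPRC and MYOD1 were named in addition, after their values were seen. So were ATOH1, CALB1, USH1C, BMPER, CHRDL1, FSTL3, NBL1, SOSTDC1, ELAVL2 and ELAVL4. The same holds for CYP26A1, RDH10, KLF1, TAL1, LMO2, TFRC, KCNMA1 and TECTA. It holds too for MYF5, MYF6, MYOG, CD74, BMP2, BMP4, BMP5, BMP7, GDF3, PROX1 and SOHO-1. List counts are descriptions, and no set test was run.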

Additional observations from a re-analysis of the deposited data

How the results depend on the processing

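The count of 66 genes depended on the fit. Without the replicate block it was 0, and 0 without a filter on low values. It was 36 with a pseudocount of 0.1, 29 after median centring (17 higher, 12 lower, against 31 and 35), 257 under quantile normalization (84 higher, 173 lower) and 589 when the 4 distal and proximal libraries were fitted alone with the replicate block. Leaving out 1 library gave 118 to 6994, the highest without the second proximal library, with 1 residual degree of freedom. The genes at least 2-fold higher in both sets numbered 256 with a pseudocount of 0.1, 439 at 1.5-fold and 37 at 3-fold, and the lower ones 403, 605 and 51. In the first set alone 1745 were higher and 1031 lower, and in the second set alone 222 and 376, a check added after the data were seen. The causes of these changes were not tested.

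Of the 57 genes with a symbol that passed, none changed direction under any alternative. Without the first-set distal library 11 lost the call (ATP1B1, BAMBI, CBLN4, CHRNA4, DLK1, EYA2, GAL5, KCNS2, SMOC1, SYBU and TAGLN3), and without the second-set distal library 3 did (ATP1B1, CHRNA4 and SYBU). Median centring lost 34, and a pseudocount of 0.1 lost 27. The sign of the median turned under a scaling or that pseudocount in 11 of 44 lists (both BMP lists, Notch, Hedgehog, FOX, collagens, laminins, proteases, calcium and sodium channels, solute carriers and cell cycle), and 83 of 220 recomputed list medians moved by more than the spread between sets. Of the 164 named genes only POSTN reversed, at 1.05 and 1.15 without the second-set distal or proximal library; over all libraries left out in turn it ran from -1.16 to 1.15. Depth limits the first set, where 1 read per kilobase was 0.108 RPKM in the distal library.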

Other observations

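A few genes were at least 2-fold different in both sets but in opposite directions. There were 12 among 12559 tested, of which 11 carry no symbol. The remaining one was POSTN, which encodes periostin, a matrix protein of connective tissue. It measured 18.2 and 6.15 RPKM in distal pieces against 5.95 and 18.9 RPKM in proximal pieces, a difference of 1.46 in the first set and -1.48 in the second, and limma gave an adjusted p of 0.997 for the mean. The middle pieces had 9.86 and 8.79 RPKM.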
